A study of Homo sapiens with 16 samples.

Results

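The starts of transcription that K562 cells use in their own chromatin were compared with the starts used by the same DNA in a short episomal reporter, over 250 genomic regions of the 499 inserts in the short library. K562 is a human erythroleukaemia cell line, here of wild-type genotype and without treatment. The regions were chosen by name: they are all the inserts that the deposited table calls RAND and places at a transcription start on hg38, each with 4 barcodes. The reporter values come from TSS-MPRA, which reads the 5′ ends of RNA made from a pooled plasmid library, so that each read gives both its insert and the base at which transcription began. The group EpiShort has 2 replicates of RNA with matched DNA sequencing, and its vector is an episome, a plasmid that is kept outside the chromosomes. The labels do not say whether the replicates came from separate cultures.

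The native values are the other 2 blocks of that table, which its name calls csRNA. In this field csRNA means capped small RNA, the short 5′ ends of RNA made by polymerases that have just begun transcription, so its 5′ ends mark native starts whether or not the RNA is stable. No sample of the series carries this label. The csRNA blocks are therefore given as the authors' values, with no replicate statistics, and no test sets them against the reporter. The order of the blocks was taken from the order in the table's name; the csRNA blocks held 0 DNA reads, and their values were the same in all 4 barcode lines of each of the 250 regions.

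RNA polymerase II begins transcription at a core promoter, often at a pyrimidine followed by a purine, the initiator step, of which the purine is the first base of the RNA. Promoters with a TATA box tend to use 1 dominant start, and CpG-rich promoters tend to spread their starts over many bases. A plasmid keeps the DNA sequence of a promoter but not its chromosomal neighbours, its chromatin or its distant enhancers.

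The reporter was read far more deeply than csRNA. Over the 250 regions, the reporter replicates held 8614939 and 7531258 RNA reads, with a median of 11330.5 and 9666.5 per region. The csRNA blocks held 44870 and 52928 reads, with a median of 79 and 89.5 per region and ranges of 5 to 1673 and 2 to 2124. Start profiles were compared in the 154 regions with at least 50 reads in each of the 4 blocks, and 95 of the regions left out had fewer than 50 reads in a csRNA block. By GENCODE, 101 of the 250 regions had the start of a transcript no more than 500 bp away on their own strand, 53 had one on the opposite strand only, and 96 had neither.

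Sequences that show a shared start and shifted starts are given first, as hg38 sequence from 35 bases before to 5 bases after the main start, the position with the most reads, with the base before the main start and the main start itself in capitals. PTMA encodes prothymosin alpha, an abundant nuclear protein, and its main start was the same in all 4 blocks (chr2:231708495-231708535, plus strand). HCG14 is a long non-coding RNA gene, and reporter replicate 1 had its main start 12 bp upstream of the native one, while replicate 2 kept the native one by a small margin (native chr6:28896422-28896462, reporter chr6:28896410-28896450, plus strand). The reporter sequence of HCG14 is that of replicate 1, and the profiles of HCG14 were not apart by the rule given below. The region chr6:31703349-31703548 lies opposite the start of ABHD16A, a lipase gene, and had its reporter main start 61 bp upstream (native chr6:31703441-31703481, reporter chr6:31703380-31703420, plus strand). MIR223HG, the host gene of a myeloid microRNA, had the largest profile difference among the regions whose profiles were alike within each source (native start of csRNA block 1 chrX:66015211-66015251, reporter chrX:66015316-66015356, plus strand).
PTMA, native and reporter: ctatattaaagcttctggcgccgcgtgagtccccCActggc
HCG14, native: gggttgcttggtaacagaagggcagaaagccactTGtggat
HCG14, reporter: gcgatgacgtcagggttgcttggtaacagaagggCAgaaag
chr6:31703349-31703548, native: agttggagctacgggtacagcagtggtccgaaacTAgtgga
chr6:31703349-31703548, reporter: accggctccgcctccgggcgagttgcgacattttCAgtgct
MIR223HG, native: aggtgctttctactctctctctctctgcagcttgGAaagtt
MIR223HG, reporter: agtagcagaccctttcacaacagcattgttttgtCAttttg

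The whole profile of starts differed between chromosome and plasmid by more than it differed within either source in most regions. Distances are earth mover distances between cumulative profiles, in bp: the mean distance that reads would have to be moved to turn a profile into the other. The median over the 154 regions was 9.32 bp between native and reporter, 0.71 bp between the reporter replicates and 3.54 bp between the csRNA blocks. The 4 pairs of a replicate and a block had medians of 8.48 to 9.54 bp. Profiles were called apart where the smallest of the 4 native-to-reporter distances was above both distances within a source, and 130 of the 154 regions (84.4%) were apart. Barcodes of the same region within a reporter replicate were a median of 3.03 bp apart, over the 152 regions where it could be computed. The regions that were not apart had a median of 75.5 reads in the shallower csRNA block, against 161 reads in those that were apart, and the part of depth in the call was not tested. Among the 64 regions with at least 200 reads in each block, 90.6% were apart and the median distance was 8.22 bp.

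**Figure D1:**
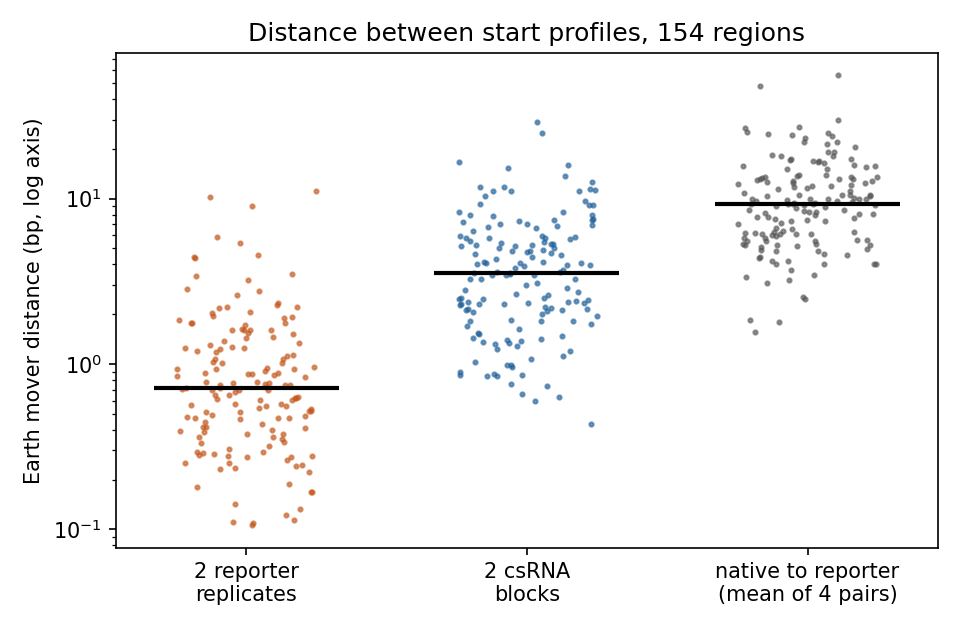
Earth mover distance between start profiles in bp (log axis) for the 154 regions with at least 50 reads in each block, with 1 point per region and the median as a bar. Reporter replicates lie lowest (median 0.71 bp), csRNA blocks between (3.54 bp) and native against reporter highest (9.32 bp).

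Among the 137 regions whose distances within each source were under 10 bp, the smallest mean distance was 1.56 bp, in chr20:25247897-25248096 on the minus strand, opposite the start of PYGB, a glycogen phosphorylase gene. Its main start held 54.8% and 57.4% of the csRNA reads and 53.7% and 54.4% of the reporter reads, and the profiles were not apart by a small margin. PTMA followed with 1.79 bp. The main start of PTMA held 72.9% and 79.0% of native reads (exact 95% binomial intervals of 67.5% to 77.9% and 76.3% to 81.5%) and 79.1% and 78.1% of reporter reads, and its profiles were just apart. The others were chr4:87006810-87007009 opposite AFF1 (1.85 bp), chr19:5718752-5718951 in an intron of LONP1 on the opposite strand (2.47 bp), chr3:10141593-10141792 opposite VHL (2.53 bp), DMXL1 (3.10 bp), the non-coding gene ENSG00000289569 (3.21 bp) and ELF1 (3.35 bp). Of these others, only the profiles of DMXL1 were not apart: its csRNA blocks lay 4.06 bp from each other. AFF1 encodes a part of the super elongation complex, LONP1 a mitochondrial protease, VHL a ubiquitin ligase subunit and ELF1 a transcription factor of the ETS family. The main start was at the same base in 6 of these 8 regions, and 1 bp upstream in the reporter in ELF1 and opposite AFF1.

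The regions farthest from their native profile differed in the bases that held their reads, and some of them had few reporter reads. MIR223HG had a mean distance of 55.6 bp. Its csRNA block 1 held 44.4% of reads at a start 105 bp upstream of the reporter's main start, where the reporter had 0 reads in both replicates; csRNA block 2 held 24.5% there and 25.9% at the reporter's main start, so the csRNA blocks put their main start at different bases. RNFT2, a ubiquitin ligase gene, had 26.8 bp with very spread starts in all blocks (effective number 48.9 and 52.3 in the reporter, 21.5 and 24.9 in csRNA, as defined with the breadth of starts). ENSG00000258561, a gene that overlaps GPHN on the opposite strand, had 25.2 bp, and the reporter placed 30.5% and 29.6% of reads 49 bp upstream of the main start of csRNA block 1. The next were chr3:151871765-151871964 in an intron of AADACL2-AS1 on the opposite strand (25.1 bp), ZBTB8OS (23.9 bp), chr6:31703349-31703548 (22.0 bp), chr14:36971340-36971539 in an intron of SLC25A21 (21.4 bp) and chr10:110084039-110084238 in an intron of ADD3 on the opposite strand (20.7 bp). Reporter reads were few in MIR223HG (705 and 613), RNFT2 (339 and 301) and chr10:110084039-110084238 (621 and 658). Their log2 RNA per DNA was -2.74, -4.63 and -1.13. The other regions had from 3152 and 2473 reporter reads (chr3:151871765-151871964) to 73451 and 67891 (ENSG00000258561). ZBTB8OS encodes a subunit of the tRNA ligase complex, and shows that a shared main start can go with a large distance: the same base held 30.0% and 29.4% of native reads and 38.4% and 38.0% of reporter reads. In csRNA a second cluster 89 bp upstream held 8.45% and 10.5% at its strongest base, which was not among the 3 leading starts of either reporter replicate.

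In 96 of the 154 regions both reporter replicates agreed on a main start and so did both csRNA blocks; 54 had the same base in both sources and 42 (43.8%) another one. The reporter's main start lay upstream in 25 of the 42 and downstream in 17, with a median size of 11.5 bp and the largest at 72 bp. By size, 14 lay within 5 bp of the native start, and 28 lay farther away, 17 upstream and 11 downstream. The middle of the named region was itself the native main start in at least 1 csRNA block in 139 of the 154 regions. Taking a single csRNA block as the native source, which asks less agreement and lets more regions in, gave another main start in 71 of 146 regions with block 2 alone and 74 of 140 with block 1 alone.

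**Figure D2:**
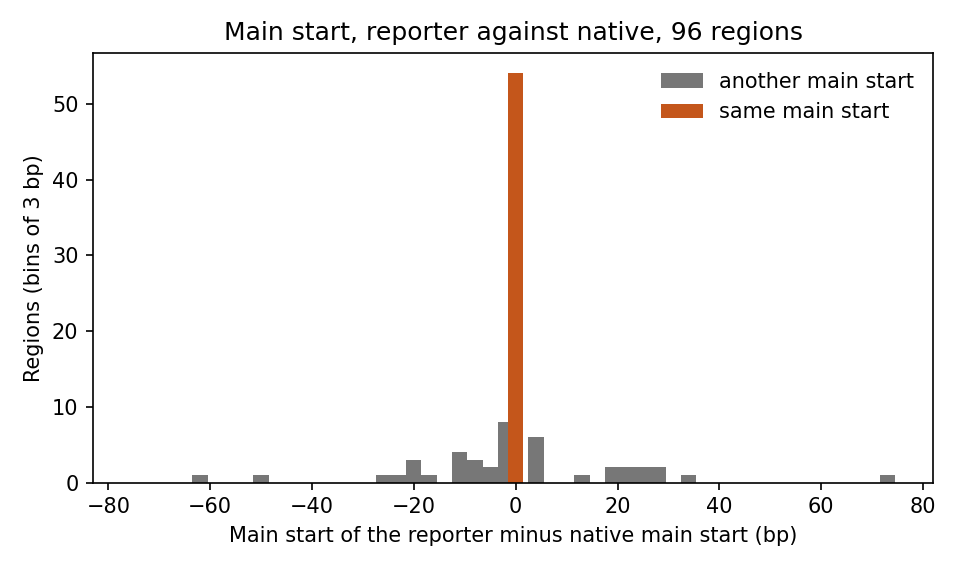
Main start of the reporter minus the native main start in bp, for the 96 regions with 1 main start in each source; negative values are upstream, and bins are 3 bp wide. The orange bar, drawn as wide as the bins, holds the 54 regions at an offset of exactly 0, and the grey bars the 42 with another, reaching from 61 bp upstream to 72 bp downstream.

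Where the main start differed, each source usually still used the other's start to some degree. In the 42 regions the native main start held a median of 27.8% of native reads and 9.07% of reporter reads. The reporter's main start held a median of 24.2% of reporter reads and 7.17% of native reads, and 25 of the 42 had at least 5% of native reads there. In 3 regions csRNA had 0 reads at the reporter's main start, among them ZSCAN5A and BCL2L1. In the 54 regions with a shared main start, it held a median of 43.2% of native and 31.6% of reporter reads, and 49 of these 54 profiles were still apart.

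TMEM167A, which encodes a small Golgi membrane protein of the secretory pathway, had the largest offset between steady main starts (chr5:83077280-83077479, minus strand). Native reads peaked at a start that held 25.4% and 20.6% of csRNA reads (exact intervals of 22.9% to 27.9% and 18.4% to 23.1%) and only 3.20% and 3.45% of reporter reads. The reporter peaked 72 bp downstream with 15.5% and 15.8%, a base that held 9.69% and 11.2% of csRNA reads. The base 30 bp downstream of the native main start was among the 3 leading starts of all 4 blocks. BCL2L1, which encodes the survival protein BCL-XL, had its reporter main start 26 bp downstream (chr20:31723888-31724087, minus strand). That base held 49.2% and 52.5% of reporter reads and 0 of 75 and 0 of 112 csRNA reads, which allows shares of up to 4% and 2.68%. The native main start of BCL2L1 held 22.7% and 30.4% of csRNA reads and 1.81% and 1.22% of reporter reads. The region named ZSCAN5A, for a zinc finger protein gene, has that gene's annotated start at -330 bp from its middle, where negative is upstream. Its middle also lies within ENSG00000267606. The reporter main start of the region lay 29 bp downstream with 18.6% and 20.0% of reporter reads. It had 0 of 76 and 0 of 102 csRNA reads there, which allows up to 3.95% and 2.94%. Unlike BCL2L1, it kept 17.2% and 15.3% of reporter reads at the native main start, which held 38.2% and 29.4% of csRNA reads.

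Offsets upstream were also seen, some of them in regions with many csRNA reads. SF3B3, a splicing factor gene, peaked 11 bp upstream in the reporter with 25.7% and 25.1% of reads, where csRNA had 4.18% and 7.86%. Its reporter reads were few for this library, at 1677 and 1568. In SF3B3 the native starts also formed a downstream cluster, with 17.5% and 10.3% of csRNA reads 28 bp after the main start. Chosen after the values were seen, WDR74 had 33.2% and 33.6% of reporter reads 21 bp upstream, against 2.31% and 3.95% of csRNA reads. TRMT11, a tRNA methyltransferase gene, likewise had 16.7% and 16.5% of reporter reads 21 bp upstream, against 1.63% and 3.17% of csRNA reads. COX17, a copper chaperone gene for cytochrome c oxidase and the region with the highest native level, had no single native main start: the blocks put it at bases 4 bp apart, and the reporter peaked 29 bp upstream of that of block 1 with 22.6% and 23.9%, where csRNA had 3.53% and 4.47%.

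**Figure D3:**
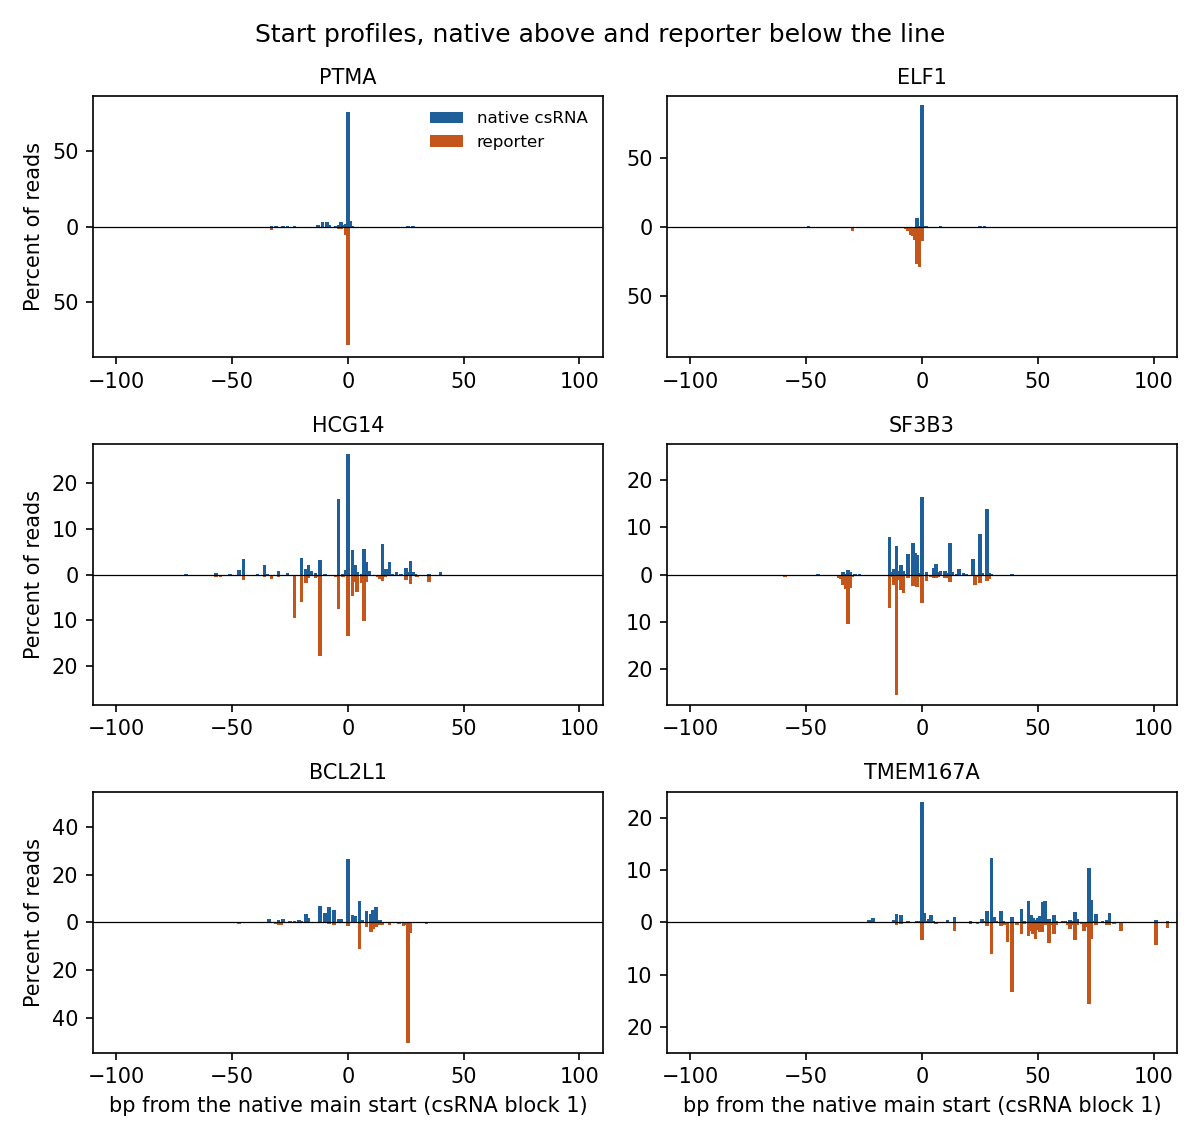
Percent of reads starting at each base, by bp from the main start of csRNA block 1, in 6 regions; blue bars above the line are native csRNA (mean of 2 blocks) and orange bars below are the reporter (mean of 2 replicates). PTMA shares its peak, ELF1 spreads upstream of it in the reporter, and BCL2L1 and TMEM167A peak 26 bp and 72 bp downstream in the reporter.

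The mean position of starts had no common direction. The reporter's mean start lay upstream of the native one in both replicates, beyond both csRNA blocks, in 64 regions (41.6%) and downstream in 63 (40.9%). The median difference was -0.16 bp, with quartiles at -4.81 and 5.64 bp. Regions near an annotated start on their own strand were upstream in 42 and downstream in 29 of 86, while those opposite an annotated start were upstream in 7 and downstream in 19 of 29. This difference between places was not tested.

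Fewer reporter reads lay close to the native start. Within 5 bp of the main start of csRNA block 1, a position chosen from that block, the median share was 51.8% in csRNA block 1 and 48.9% in csRNA block 2, against 32.9% and 32.0% in the reporter replicates. Block 2 was not used to choose the position, but it is no independent check. In 100 of the 154 regions both blocks had their main start at the middle of the named region. Both reporter replicates were below both blocks in 109 regions and above both in 26. In the 64 regions with at least 200 reads in each block, a median of 9.83% of reporter reads began at bases with no csRNA read in either block, with a range of 1.55% to 55.6%. With so few csRNA reads, a base without one is not shown to be unused.

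Starts were spread over more bases in the reporter at most regions when breadth was measured by the effective number of starts, the number of equally used bases that would give the same chance of 2 reads sharing a base. The median was 9.53 and 9.51 in the reporter replicates and 6.61 and 6.94 in the csRNA blocks. The reporter was broader, with both replicates above both blocks, in 99 of 154 regions (64.3%), and narrower in 38 (24.7%). The median log2 ratio of reporter over native was 0.48, and 0.26 in the 64 regions with at least 200 reads in each block. The count depends on the measure: by the number of bases with at least 5% of the reads, 32 regions were broader, 40 were narrower and the median log2 ratio was 0. Reporter reads 1 bp upstream of main starts, given below, also enter the effective number, and their part in the breadth was not tested.

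**Figure D4:**
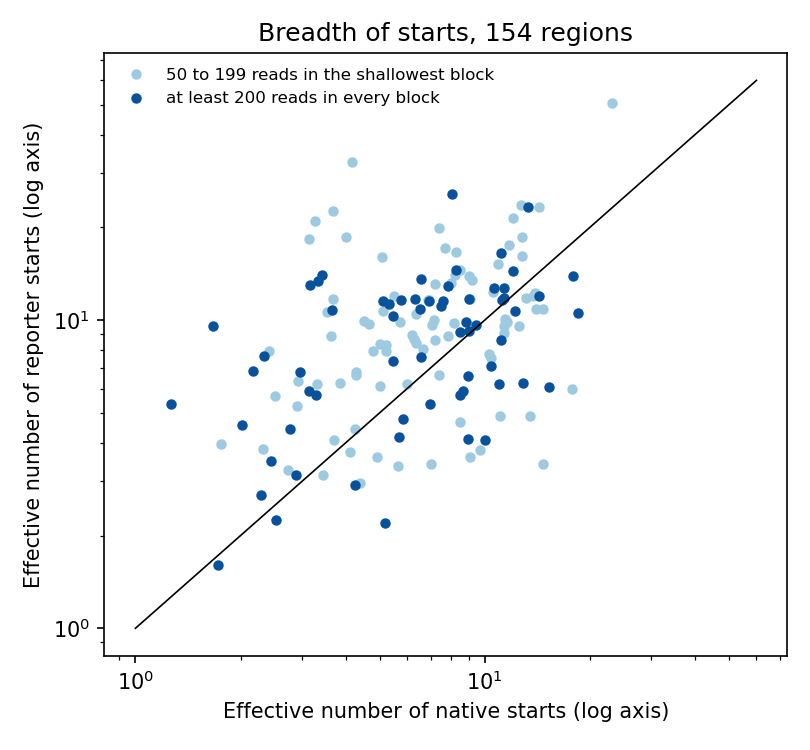
Effective number of native starts (mean of 2 csRNA blocks) against that of reporter starts (mean of 2 replicates), both on log axes, for 154 regions, with the line of equal breadth. Of these, 99 regions were broader and 38 narrower in the reporter; dark points have at least 200 reads in every block.

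Regions with focused native starts shared their main start in more of the cases, by counts that were not tested. Of 19 regions with a native effective number under 3, 17 were broader in the reporter, and 15 of the 18 with steady main starts shared the base. Of 93 regions with 3 to 10, 69 were broader, and 35 of 62 shared the main start. Of 42 regions with 10 or more, 13 were broader and 20 narrower, and 4 of 16 shared the main start. The sets were made from native values that also enter these comparisons, so the counts are a description. ELF1 was the most focused: its main start held 88.1% and 89.1% of csRNA reads (exact intervals of 85.0% to 90.8% and 86.4% to 91.4%) and 10.6% and 10.2% of reporter reads.

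The reporter's reads at ELF1 formed a ladder of neighbouring bases, which led to a look at the sequence around the start, chosen after the values were seen. The native main start of ELF1 is the first base of a run of 4 A. The reporter had 29.3% and 28.5% of reads 1 bp upstream of it, 27.0% and 27.5% at 2 bp and 9.60% and 9.63% at 3 bp, while csRNA had 0.78% and 0.31% at 1 bp, 7.02% and 5.79% at 2 bp and 0 and 0.16% at 3 bp. Of the 154 regions, 14 had a native main start that opens a run of 3 or more of the same base. The lines give hg38 sequence from 20 bases before to 9 bases after that start, with the run in capitals, for 4 runs of A, 1 of T, 1 of C and 1 of G. They are ELF1 (chr13:41061375-41061404, minus strand), the region opposite AFF1 (chr4:87006869-87006898, minus strand), a region near no annotated start (chr20:56415272-56415301, minus strand), OXNAD1 (chr3:16265213-16265242, plus strand), WDR89 (chr14:63641824-63641853, minus strand), TRAF3IP2-AS1 (chr6:111483879-111483908, plus strand) and IFT74 (chr9:26956399-26956428, plus strand).
ELF1: tgaggtcaccgggaaggggtAAAAgcgcga
opposite AFF1: ggcgctcggcggccctagccAAAggcaggc
near no annotated start: tacacaagggcctgtggaccAAAtctagat
OXNAD1: tattccaggcgcctgcaactAAAcgtggcc
WDR89: aagccgccgcgcagcctgcgTTTTctccgg
TRAF3IP2-AS1: ccgccctggcgttcccccttCCCgaacgtg
IFT74: cgcggcgcacggcagttagtGGGtaggcct

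At most runs of A the reporter had about as many reads 1 bp before the run as at its first base, or more. Opposite AFF1 the reporter had 38.0% and 38.3% of reads 1 bp upstream and 12.5% and 12.4% at the native main start, against 0 and 0.68% and against 58.7% and 56.7% in csRNA. In the region near no annotated start, 19.6% and 25.6% of reporter reads lay 1 bp upstream, against 0 and 1.27% of csRNA reads. OXNAD1 had 19.4% and 19.1% there, against 0.28% and 0.22%. WDR89, with a run of T, had 16.1% and 15.3%, against 0 and 2.78%. LIG3, a DNA ligase gene, had 10.9% and 10.9% of reporter reads 1 bp upstream and 11.7% and 12.3% at the start, with 0 csRNA reads 1 bp upstream in both blocks. At the runs of A of CACYBP and MIR223HG the reporter had at most 2.33% of reads at either base. The runs of C and G shown did not have this form: TRAF3IP2-AS1, an antisense RNA gene, had 1.09% and 1.00% of reporter reads 1 bp upstream and 26.9% and 30.0% at the start, and IFT74, an intraflagellar transport gene, had 0.033% and 0.020% 1 bp upstream. The number of reporter reads 1 bp upstream per read at the native main start had a median of 0.93 and 0.88 over the runs of 3 or more (12 and 13 regions with a read at that start), and of 0.068 and 0.073 over the regions whose start base is not repeated (122 and 121 regions). In csRNA the median was 0 in both blocks for both sets. The native main start is the peak of csRNA block 1, and csRNA was read far less deeply. A low csRNA median therefore follows in part from the choice of position and from depth.

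The 4 regions with a reporter main start exactly 1 bp upstream of the native one were all of this kind: ELF1, WDR89, the region opposite AFF1 and chr20:56415209-56415408. In the 96 regions with steady main starts, those with runs included, the reporter had a median of 0.074 reads 1 bp upstream per read at its own main start in both replicates and 0.016 and 0.014 reads 1 bp downstream. In csRNA the order was the other way, with 0.0034 and 0.0037 upstream and 0.037 and 0.040 downstream.

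A smaller share of reads lay on the initiator step in the reporter. As given above, the reporter had more reads 1 bp upstream of its main starts than csRNA. The part of those reads in this share was not tested. A pyrimidine followed by a purine held a median of 61.1% and 59.8% of reporter reads and 74.2% and 73.3% of csRNA reads, while 21.8% of all insert positions are such a step. The reporter share was lower, with both replicates below both blocks, in 106 of 154 regions (68.8%) and higher in 18 (11.7%). Leaving out csRNA block 1 or block 2 gave 36 and 30 regions with a higher share. The share was lower in 97 of the 140 regions whose native start opens no run of 3 or more (69.3%) and in 9 of the 14 with such a run (64.3%), a difference that was not tested. In the 64 deeply read regions, reporter reads at bases used by csRNA were on the step in a mean of 61.1%, and reporter reads at bases with no csRNA read in a mean of 24.6%. The bases were split by csRNA, whose own reads lay mostly on the step, so this contrast follows in part from the split.

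The main starts themselves were mostly on the initiator step in both sources. Of the 96 steady regions, 86 native main starts and 81 reporter main starts were on a pyrimidine followed by a purine. CA was the most frequent step, with 47 native and 52 reporter main starts, and TA had 19 and 18. In the 42 regions with another main start, 17 native and 22 reporter main starts were on CA, 8 and 4 on TG, and 8 and 3 on CG.

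By place, the median distance was 9.43 bp for the 86 regions near an annotated start on their own strand, 9.24 bp for the 29 opposite one and 9.18 bp for the 39 near neither. Profiles were apart in 75, 21 and 34 of these, and the main start was shared in 32 of 57, 9 of 19 and 13 of 20 with steady main starts. With an annotated start asked for within 100 bp, the 5 regions that remained opposite one had a median of 5.61 bp.

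Promoter elements were sought as fixed letters on hg38 before the main start of csRNA block 1, on both strands except the TATA box. The TATA box, TATAA, was found 20 to 40 bases before it in 4 of 250 regions (1.6%), of which ELF1 and TRAF3IP2-AS1 are named genes. In these 4, the main start was shared in 3, against 51 of 92 steady regions without it, the median distance was 5.93 bp against 9.37 bp in the 150 compared regions without it, and the median native effective number was 3.01 against 6.99. TRAF3IP2-AS1 had 64.2% and 58.7% of csRNA reads at its main start and 26.9% and 30.0% of reporter reads. The other elements were sought in the 150 bases before the start. GGGCGG, the GC box bound by Sp factors, was present in 104 regions (41.6%), CCAAT, bound by NF-Y, in 52 (20.8%), and CCGGAA, the core of ETS sites, in 39 (15.6%). The palindromic site of NRF1 was present in 5 (2%), and the 3 of them that could be compared were ZSCAN29, COX17 and POLR2H. The match lay within the insert in 94 regions for the GC box, 47 for CCAAT, 34 for the ETS core and 4 for NRF1. The sets with an element may therefore hold regions whose insert lacks that match. Median distances with and without were 8.82 and 9.92 bp for the GC box, 7.95 and 9.36 bp for CCAAT and 10.5 and 9.15 bp for the ETS core. The main start was shared in 7 of 18 steady regions with the ETS core and 47 of 78 without, in 10 of 24 with CCAAT and 44 of 72 without, and in 29 of 51 with the GC box and 25 of 45 without. A match is only a description of the sequence, and none of these differences was tested.

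All inserts have the same 200 positions, so reads were compared without a correction for length. Over the 250 regions the Spearman correlation between the mean reporter and the mean csRNA level was 0.40 (Pearson 0.39 on log2 reads), against 1.00 between the reporter replicates and 0.95 between the csRNA blocks. The points share base composition: the correlation with GC content was 0.25 for the native and 0.36 for the reporter level. Reporter RNA per DNA, over the 247 regions with at least 20 DNA reads in each replicate, gave 0.39. The 63 regions with the lowest native level had a median of 4437 reporter reads, the next 62 had 8214, the next 63 had 9504 and the 62 with the highest had 27592.5. Each set was wide: in the set with the highest native level the reporter's 10th and 90th percentiles were 4284.4 and 117205.8 reads. Within places the correlation was lower, at 0.28 on the same strand, 0.20 opposite and 0.24 near neither.

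**Figure D5:**
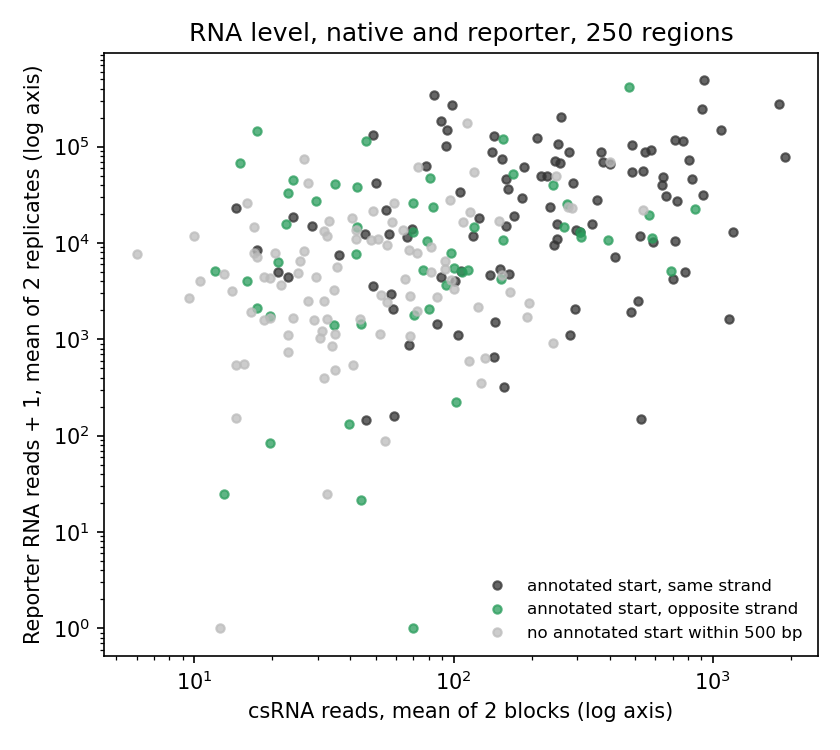
csRNA reads (mean of 2 blocks) against reporter RNA reads plus 1 (mean of 2 replicates), both on log axes, for 250 regions coloured by their place relative to annotated starts. The cloud rises to the right (Spearman correlation 0.40) and spans a wide range of reporter reads at every native level.

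Some strong native starts had few reads in the plasmid. ADAMTS14, a metalloproteinase gene, had 486 and 568 csRNA reads, rank 29 of 250, and 173 and 123 reporter reads, rank 241, although its main start was the same base in all 4 blocks. SF3B3 ranked 4 natively with 1077 and 1222 reads and 208 in the reporter with 1677 and 1568. HCG14 ranked 51 and 219, and TRAF3IP2-AS1 34 and 201. Their reporter RNA per DNA was low in ADAMTS14, SF3B3 and TRAF3IP2-AS1 (log2 of -1.43, -0.38 and -1.60) and not in HCG14 (1.81), with a median of 1.16 over the regions near an annotated start on their own strand. All had fewer DNA reads than the median region (25602.5 and 2878.5 in the replicates). HCG14 had 891 and 114, ADAMTS14 1171 and 133, SF3B3 5877 and 757 and TRAF3IP2-AS1 17566 and 1875.

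Others ranked near the middle natively and high by reads in the plasmid. ZSCAN5A had 76 and 102 csRNA reads, rank 124, and 196248 and 173442 reporter reads, rank 8. POLR2H, which encodes a subunit shared by the nuclear RNA polymerases, ranked 115 natively with 81 and 116 reads and 5 in the reporter with 277701 and 260748. RRAGA, a GTPase gene of the nutrient-sensing mTORC1 pathway, ranked 120 and 11, and BCL2L1 122 and 22. Each of these regions also had more DNA reads than the median region (25602.5 and 2878.5 in the replicates), with 114218 and 12560 in POLR2H. Log2 RNA per DNA was 2.42 in ZSCAN5A, 2.83 in POLR2H, 3.77 in RRAGA and 2.76 in BCL2L1. POLR2H kept its native main start, with 55.6% and 32.8% of csRNA reads and 35.9% and 35.3% of reporter reads. A second native start of POLR2H, 42 bp downstream, held 17.3% and 22.4% of csRNA reads. It lies at position 170, past the last position with a reporter read in any region (164). At the top of the native ranks, TUT1, a terminal uridylyltransferase gene, was high in both, ranked 2 and 4, with the same main start in all 4 blocks. COX17 ranked 1 and 28, and TMEM167A 3 and 108.

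The calls of profiles as apart have a threshold, and the regions next to it are given here. PTMA and chr10:123135243-123135442 were just apart, with mean distances of 1.79 and 5.26 bp and csRNA block distances of 1.40 and 3.59 bp. The region opposite PYGB and TUT1 were just not apart, with mean distances of 1.56 and 10.4 bp and csRNA block distances of 1.53 and 7.52 bp.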

How the data were processed

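The authors deposited 1 table of the short episomal library, which stacks 4 blocks. For each barcoded insert it gives an RNA read count, a DNA read count and, at each of 200 positions, the fraction of RNA reads beginning there, per the file headers. STAR 2.7.9a and hg38 are named in the submitters' processing notes; how reads were assigned to a start is not given in the sources used here. Blocks were assigned by the order of names in the table's name. The 2 csRNA blocks match no sample of the series.

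Fractions were multiplied by counts and rounded to reads; at least 99.8% of the nonzero products lay within 0.05 of a whole number. Reporter barcodes were summed per region and csRNA was taken once. Over all regions, reporter reads began at positions 1 to 164 and csRNA reads at positions 19 to 170. Insert positions were placed on hg38 by the middle of the named region, and this offset was checked: 58.4% to 71.5% of reads then lay on pyrimidine-purine steps, against at most 26.6% at the next best offset within 100 bp. Coordinates of a region are those of its 200 positions. Genes come from GENCODE 44. Breadth is the unbiased inverse Simpson index. Levels are log2 of reads plus 1.

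No test was run between native and reporter, because the csRNA blocks are no samples with replicates; counts of regions whose replicates and blocks do not overlap stand in place of it. Intervals and limits (3 reads for a count of 0) cover counting error only, and reads without molecular identifiers are not independent molecules. The measures were tried on reads simulated from the profiles of reporter replicate 1, with the whole profile shifted in some regions. The simulated sources did not differ in assay or breadth and held no duplicate reads, so such differences were not tried. The regions, lists and rules were chosen with earlier results of these data known. Named regions are the 8 nearest and the 8 farthest in profile among those with both distances within a source under 10 bp, the 4 with the highest native level, the 4 whose reporter rank lay farthest above and the 4 farthest below the native rank, and the 2 on each side of the threshold of the call; other names were chosen after the values were seen. The values of 1 region are not reported here, though it is counted. Profiles and distances were computed with numpy 2.4.6 and pandas 2.3.3 (python 3.11.15), intervals and correlations with scipy 1.17.1, sequences read with pysam 0.24.0 and samtools 1.23.1, and plots drawn with matplotlib 3.10.9.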

Additional observations from a re-analysis of the deposited data

How the results depend on the processing

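A minimum of 10 reads kept 234 regions and one of 200 reads 64. The median distance was then 9.95 and 8.22 bp. With 10 reads, 154 regions were broader (median log2 ratio 0.59), 44 main starts lay over 5 bp apart, 30 regions had a higher pyrimidine-purine share, and medians by place were 10.06 bp near neither and 9.60 bp on the same strand (86 regions near neither and 48 opposite). With 200 reads, 58 regions were apart, 49 had steady main starts (29 the same, 20 another, 16 over 5 bp apart), 38 were broader and 19 narrower (median log2 ratio 0.26), 44 had a lower and 8 a higher pyrimidine-purine share, and medians by place were 9.90 bp near neither (6 regions), 6.10 bp opposite (10) and 8.57 bp on the same strand (48). Fewer or more regions compared change these counts by construction. Taking the middle of the best 5-position window as main start left 19 shared, and 71.2% with another, but 25 over 5 bp apart. Counting positions with at least 5% of reads left 32 regions broader (20.8%), with a median log2 ratio of 0. A 100 bp limit for annotated starts gave 9.67 bp on the same strand, 5.61 bp opposite (5 regions) and 72 regions near neither. The level correlation was 0.39 per DNA and 0.38 over the 155 regions with at least 50 csRNA reads in each block.

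Leaving out 1 reporter replicate or 1 csRNA block gave these ranges: 108 to 146 steady regions, 51 to 74 with another main start, 36 to 59 main starts over 5 bp apart, a median log2 breadth ratio of 0.36 to 0.49, 18 to 36 regions with a higher pyrimidine-purine share and a level correlation of 0.40 to 0.41. Weighting barcodes equally, the middle 150 positions, a 5-position running mean, the share of reads at other positions, a pseudocount of 10 and, chosen after seeing the data, the positions read in both sources moved none of the main counts by over 1.5 times. Of 268 recomputed distances of named regions, 261 stayed within the spread over the 4 pairs. The depth of csRNA limits every comparison: 95 regions had too few csRNA reads. No paired analysis was possible because the results come from no test and the csRNA blocks carry no replicate number of the series.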
